A study of Oncorhynchus mykiss with 14 samples.

Results

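The 99 recurrent predicted miRNAs described here are rows of a small RNA count table whose IDs begin with NovelmiRNA and whose read count was above 0 in at least 4 of 14 libraries. They were taken from 643 predicted rows, in a table of 899 rows that also holds 256 rows with known miRNA names. The read counts themselves chose these rows, without regard to fat depot, so how often and how strongly they were seen is given as a description. The libraries were made from mature adipocytes, released with collagenase from 3 fat depots of adult rainbow trout that carried no allele of interest and received no treatment: intramuscular fat (IMAT, replicates 1 to 5), subcutaneous fat (SAT, replicates 1 to 5) and visceral fat (VAT, replicates 1, 3, 4 and 5). The fish lived at 15 ± 1 °C under a cycle of 12 h light and 12 h dark, and had not been fed for 24 h. The labels do not say whether libraries of a depot came from separate fish or from pools, so p-values measure the spread between these libraries, which may be technical.

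A miRNA is a small RNA cut from a hairpin precursor by Drosha and Dicer, and it represses mRNAs that match its seed. Prediction programs call a row of this kind where reads stack up on a stretch of genome that can fold into such a hairpin, and the name then carries only a running number. Salmonid genomes went through an extra whole-genome duplication, and many of their miRNAs are encoded at several loci. No target, locus or function is known from the files for any of the 99, and none is given here.

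The libraries held 759369 to 11843805 summed counts in IMAT, 2060776 to 4042846 in SAT and 4525742 to 11076843 in VAT. No miRNA defines adipocytes, so the label was checked only against miRNAs of other cells. The muscle list (miR-1, miR-133, miR-206 and miR-499, with no row for miR-208) had all 9 of its rows above 0 in each depot. It took 65.5 to 89.6% of the counts in IMAT, 3.37 to 11.9% in SAT and 0.0888 to 4.65% in VAT. The pancreas list (miR-216 and miR-375, with no row for miR-217) had all 6 rows above 0 in each depot. It summed to 105 to 283 TMM-scaled CPM in IMAT, 79.3 to 138 in SAT and 314 to 503 in VAT. TMM-scaled CPM are read counts relative to the library total, as CPM, scaled by the trimmed mean of M-values. The gut and liver list had 3 of 5 rows above 0 in IMAT, 3 of 5 in SAT and 5 of 5 in VAT, with sums of 51.7 to 154, 65.9 to 97.2 and 254 to 573. The other lists spanned 12.5 to 34.7, 45.4 to 82.0 and 97.9 to 293 TMM-scaled CPM (neurons and sensory cells, 3 of 3 rows, miR-9 only), 175 to 584, 464 to 1125 and 280 to 791 (skin and epithelia, 12 of 12 rows, none for miR-141), and 117 to 245, 191.9 to 364 and 179 to 738 (white blood cells, 4, 3 and 4 of 4 rows, none for miR-223) in IMAT, SAT and VAT. Endothelial miR-126 spanned 9323 to 29852, 36364 to 56759.9 and 8058 to 40193, and the red blood cell list (miR-144, none for miR-451) at most 24.0 in any library. In bulk samples, fewer cells of a type and less RNA per cell cannot be told apart.

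Most of the recurrent predicted miRNAs were scarce. Their median level, with each depot weighted equally, was 6.10 TMM-scaled CPM, with quartiles of 1.83 and 21.4, and 61 of 99 (61.6%) lay under 10. For the 228 known miRNAs above 0 in at least 4 libraries the median was 59.1, and 60 of 228 (26.3%) lay under 10. The highest predicted level was 2637 TMM-scaled CPM, and 15 of 99 (15.2%) reached 100, against 92 of 228 (40.4%) known ones. Only 10 of the 99 had counts in all 14 libraries (10.1%), against 151 of 228 (66.2%) known miRNAs. In single libraries 44, 38, 45, 24 and 64 of the 99 were above 0 in IMAT 1 to 5, 73, 63, 61, 72 and 78 in SAT 1 to 5, and 72, 73, 58 and 73 in VAT 1, 3, 4 and 5. IMAT 4, with the fewest, was also the library with the fewest summed counts. Muscle miRNAs took 83.6, 89.6, 84.7, 79.4 and 65.5% of the counts in IMAT 1 to 5, so only the rest fell on other rows. Their part in the numbers above 0 was not tested. Over whole depots, 87 had counts in IMAT, 95 in SAT and 94 in VAT, and NovelmiRNA-206 was the one row seen in a single depot, SAT.

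**Figure D1:**
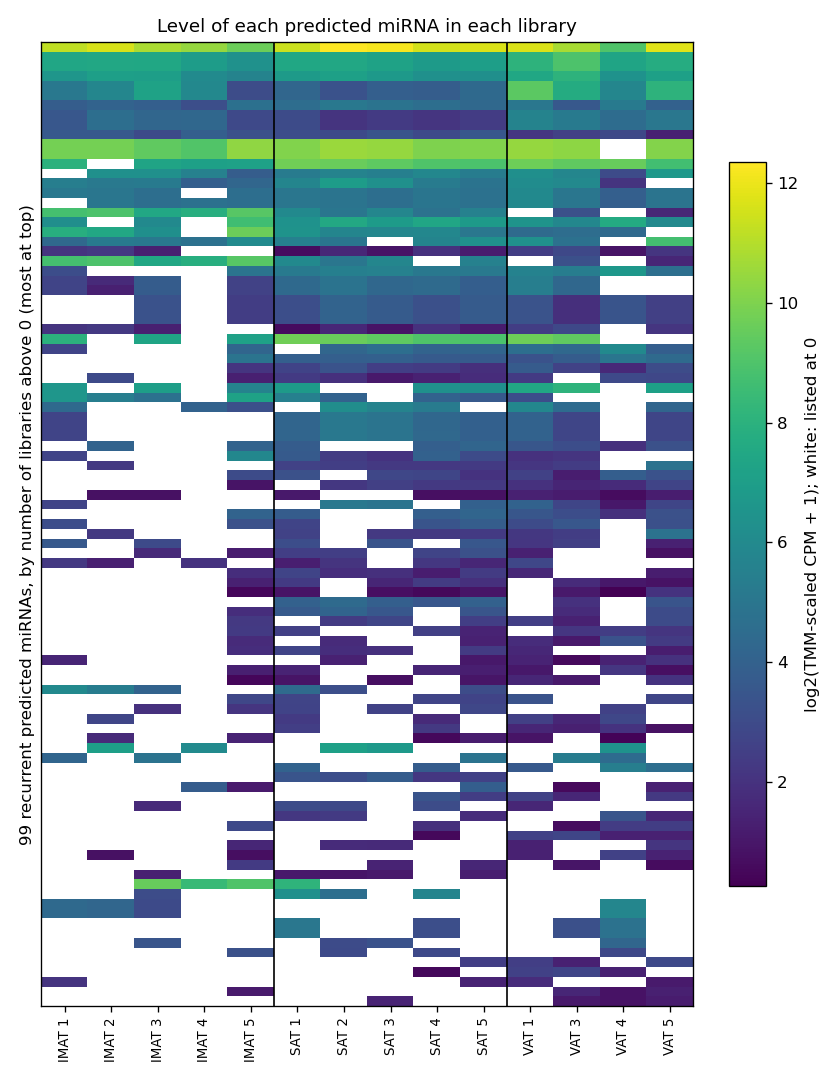
Level of the 99 recurrent predicted miRNAs (1 line each, ordered by the number of libraries above 0) in the 14 libraries, as log2(TMM-scaled CPM + 1); white marks a count listed at 0. The 10 lines at the top have counts in every library. White is most frequent in the columns of IMAT 1 to 4, where 24 to 45 of the 99 were above 0, while IMAT 5 had 64.

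Nearly as many of these rows repeated another row as stood alone. Linked is used here for a pair of rows that shared at least 4 libraries with counts above 0, had 20 reads or more in 1 of those libraries, and were never further apart there than 2 reads or 10%, whichever is larger. By that measure 47 of the 99 (47.5%) were linked in 21 sets, 17 of 2 rows, 3 of 3 rows and 1 of 4 rows, and the remaining 52 were linked to nothing. Joining each set left 73 distinct rows. No predicted row was linked to a row with a known name, while 74 of the 228 known rows (32.5%) were linked among themselves. In the 30 linked pairs, 250 of 262 values compared were the same whole number, and 10 pairs were identical in all 14 libraries. The length of the mature sequence, which the measure did not use, was the same in 30 of 30 linked pairs, against 26.5% of the 4851 possible pairs of the 99.

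Rows identical in every library were NovelmiRNA-441 with NovelmiRNA-627 (24 nt), NovelmiRNA-176 with NovelmiRNA-508 (21 nt), NovelmiRNA-62 with NovelmiRNA-268 (23 nt), NovelmiRNA-260 with NovelmiRNA-492 (23 nt), NovelmiRNA-510 with NovelmiRNA-555 (22 nt), NovelmiRNA-371 with NovelmiRNA-377 (25 nt), NovelmiRNA-235 with NovelmiRNA-606 (25 nt), and the 3 rows NovelmiRNA-48, NovelmiRNA-319 and NovelmiRNA-443 (22 nt). Values for 1 row of such a pair hold for the other. These 17 rows carry 8 series of numbers.

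In 3 sets the counts of a full row were shared out, library by library, between a pair of other rows. NovelmiRNA-525 (22 nt) had 410, 0, 211, 90 and 1157 reads in IMAT 1 to 5, 2918, 3303, 2955, 2267 and 2681 in SAT 1 to 5, and 4812, 5952, 7612 and 6989 in VAT 1, 3, 4 and 5. NovelmiRNA-2 (22 nt) had exactly these numbers in 10 libraries and was listed at 0 in IMAT 4, VAT 4 and VAT 5. There a further predicted row, NovelmiRNA-6 (22 nt), had the missing 90, 7612 and 6989 reads and was listed at 0 everywhere else. The rows NovelmiRNA-2 and NovelmiRNA-6 were thus never above 0 together, and between them covered all 13 libraries of NovelmiRNA-525. NovelmiRNA-6, with counts in 3 libraries, fell below the rule for a recurrent row.

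The second such set was NovelmiRNA-632 (21 nt), with 97.7, 132.7, 129.6, 64.1 and 50.03 TMM-scaled CPM in IMAT 1 to 5, 116, 140.2, 108, 80.4 and 77.5 in SAT 1 to 5, and 173, 271, 84.8 and 140.9 in VAT 1, 3, 4 and 5. NovelmiRNA-422 (21 nt) held its numbers in IMAT 2, IMAT 4, SAT 2, SAT 3 and VAT 4, and NovelmiRNA-346 (21 nt) held them in the other 9 libraries. NovelmiRNA-452 (23 nt), with 9 to 70 reads in IMAT, 27 to 59 in SAT and 20 to 65 in VAT, was divided in the same way between NovelmiRNA-402 (23 nt; IMAT 5, SAT 2, SAT 4 and VAT 4) and NovelmiRNA-130 (23 nt; 8 libraries). In IMAT 2 and IMAT 4 only NovelmiRNA-452 itself was listed. In the sets of NovelmiRNA-632 and NovelmiRNA-452 the division followed single libraries and not depots. Each of their part rows, NovelmiRNA-346, NovelmiRNA-422, NovelmiRNA-130 and NovelmiRNA-402, had counts in libraries of all 3 depots. In the set of NovelmiRNA-525, NovelmiRNA-2 had counts in all 3 depots, but NovelmiRNA-6 had none in any SAT library.

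**Figure D2:**
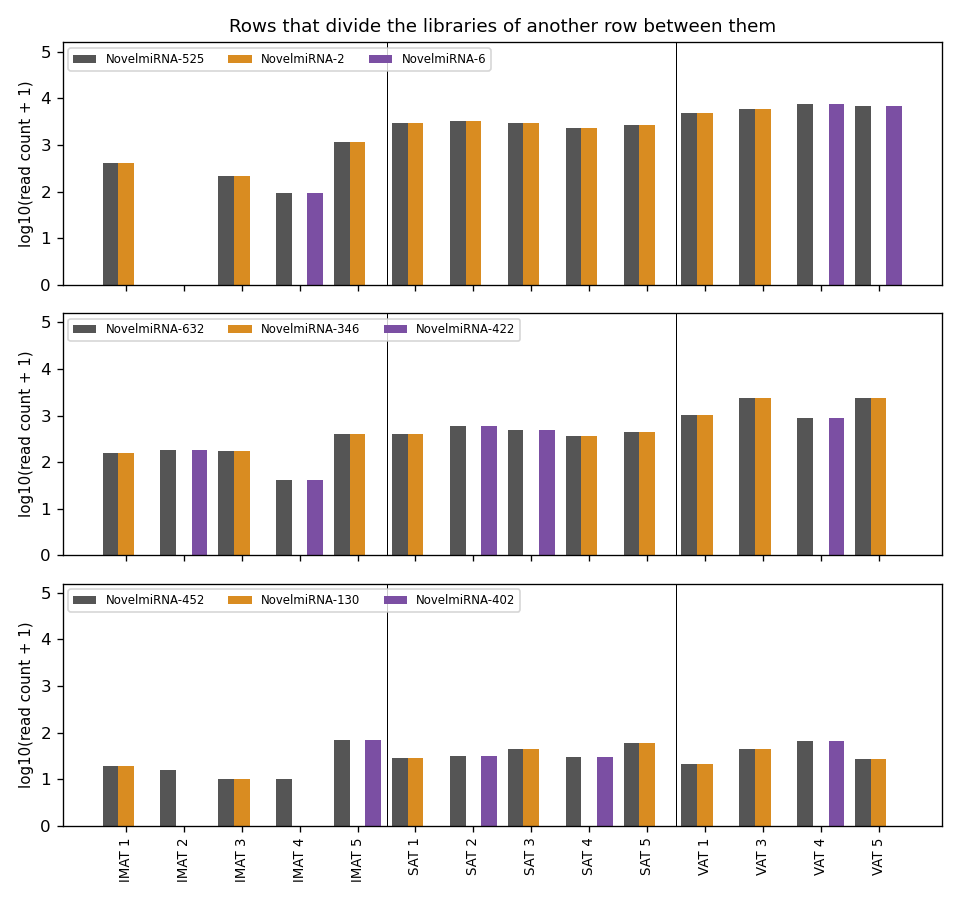
Read counts as log10(count + 1) in each library for the full rows NovelmiRNA-525, NovelmiRNA-632 and NovelmiRNA-452 (grey) and the rows that carry the same counts in part of the libraries (orange and purple). Orange and purple bars never stand together in a library, and each equals the grey bar beside it.

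Counts of 0 were frequent. Of 1386 values of the 99 rows, 548 (39.5%) were listed at 0. In 170 of these (31.0%) a library as deep as the one at 0 would have held 20 reads or more even at the lowest non-zero share seen elsewhere in its depot, and 59 of the 99 rows (59.6%) had at least 1 such zero. This comparison covers counting error only, not differences between libraries, and in 57 of the 170 cases the depot had a single library above 0. Among known miRNAs 341 of 3192 values (10.7%) were listed at 0, with 96 of these (28.2%) beyond counting error in the same sense, in 38 of 228 rows (16.7%). VAT 4 held 24 of the 170, SAT 3 held 21 and VAT 5 held 20, while IMAT 3 and IMAT 4 held 3 and 4. A shallow library meets the line of 20 reads less easily. Summed counts were 6666016, 4042846 and 11076843 in VAT 4, SAT 3 and VAT 5, and 2564208 and 759369 in IMAT 3 and IMAT 4. IMAT 5, with the most counts (11843805), held 13. The highest numbers of reads awaited at a listed 0 were 9996, for NovelmiRNA-2 in VAT 5, and 9918, for NovelmiRNA-441 and NovelmiRNA-627 in VAT 4. NovelmiRNA-441 and NovelmiRNA-627 had 7933, 11041 and 18631 reads in VAT 1, VAT 3 and VAT 5 and were listed at 0 in VAT 4. In 36 cases, over 12 rows, a row was listed at 0 while a linked row had at least 20 reads in the same library.

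The single row NovelmiRNA-550 (22 nt), linked to no other, had the highest mean level of the 99 and the highest level in 12 of 14 libraries. In IMAT 5 NovelmiRNA-441 and NovelmiRNA-627 were highest, and in VAT 4 NovelmiRNA-525. Its level was 2317, 3104, 1822, 1365 and 796 TMM-scaled CPM in IMAT 1 to 5, 2649, 5209.6, 4697, 2975 and 3279 in SAT 1 to 5, and 3243, 1731, 517 and 3582 in VAT 1, 3, 4 and 5. It alone took 10.6 to 42.6% of the counts on the 99 rows in IMAT, 31.3 to 45.8% in SAT and 18.7 to 42.0% in VAT. Every linked row was counted separately in these totals. The depots overlapped, with means ± SD of 1881 ± 885 over the 5 IMAT libraries, 3762 ± 1125 over the 5 SAT libraries and 2268 ± 1418 over the 4 VAT libraries, and no comparison of them passed the test (edgeR adjusted p = 0.22 for IMAT against SAT, 0.73 for IMAT against VAT and 0.5 for SAT against VAT).

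Second in level came the identical rows NovelmiRNA-441 and NovelmiRNA-627, with 907, 899, 683, 541 and 1296 TMM-scaled CPM in IMAT 1 to 5, 1070.5, 1494, 1390.5, 1033 and 1068 in SAT 1 to 5, and 1369, 1264, 0 and 1104 in VAT 1, 3, 4 and 5. Apart from the 0 in VAT 4 the depots lay over each other (edgeR adjusted p = 0.82 to 0.96 over the 3 comparisons). NovelmiRNA-176 and NovelmiRNA-508 averaged 146 ± 43.7 (SD) across IMAT, 150.2 ± 30.4 across SAT and 286 ± 149 across VAT libraries, with VAT 3 (499.3) above every other library and no difference past the threshold (adjusted p = 0.10 to 0.95). NovelmiRNA-632 held 94.8 ± 37.4, 104 ± 26.1 and 168 ± 78.0 in IMAT, SAT and VAT, likewise with no called difference (adjusted p = 0.17 to 0.84).

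NovelmiRNA-525 was the third most abundant distinct row, and it was low in IMAT. Its level was 258, 0, 158, 140.8 and 141.5 TMM-scaled CPM in IMAT 1 to 5, 836, 762, 651, 514 and 481 in SAT 1 to 5, and 830, 681, 747 and 414 in VAT 1, 3, 4 and 5. Every IMAT library lay below every SAT and every VAT library. The log2 difference was -2.21 ± 0.88 (SE) for IMAT against SAT and -2.26 ± 0.91 for IMAT against VAT, and neither passed the test (edgeR adjusted p = 0.13 and 0.11). Of the 14 libraries left out in turn, IMAT 2, where the row was listed at 0, was the only one whose removal gave calls, at -1.48 and -1.75 (edgeR adjusted p = 0.017 and 0.0027). Without any of the other 13 the adjusted p was 0.14 to 0.37 for IMAT against SAT and 0.13 to 0.22 for IMAT against VAT. The calls without IMAT 2 depend on leaving out the library with the lowest value and are given as values only. Its partner NovelmiRNA-2, with the same numbers in 10 libraries but 2 of 4 VAT libraries listed at 0, had a VAT mean of 378 ± 440.6 TMM-scaled CPM (SD), beside 668 ± 180 for NovelmiRNA-525.

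Predicted rows of 24 and 25 nt were more frequent here than among known miRNAs. Of the 99, 43 (43.4%) were 22 nt long, 23 were 21 nt and 14 were 23 nt, so that 80.8% fell within 21 to 23 nt. Among the 228 known miRNAs 90.4% fell there, and among the 544 other predicted rows 73.5%. Lengths of 24 or 25 nt were found in 12 of 99 recurrent rows (12.1%), in 59 of 544 other predicted rows (10.8%) and in 4 of 228 known miRNAs (1.75%). Rows of 18 to 20 nt made up 7.07% of the recurrent rows, 15.6% of the other predicted rows and 7.89% of the known ones. The shortest recurrent rows were NovelmiRNA-541 (18 nt) and NovelmiRNA-115 (19 nt), both scarce, with at most 14 and 65 reads in any library. The 6 longest, at 25 nt, were NovelmiRNA-270, NovelmiRNA-588 and the identical pairs NovelmiRNA-371 with NovelmiRNA-377 and NovelmiRNA-235 with NovelmiRNA-606. As the linked rows show, these are 4 distinct series of counts.

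**Figure D3:**
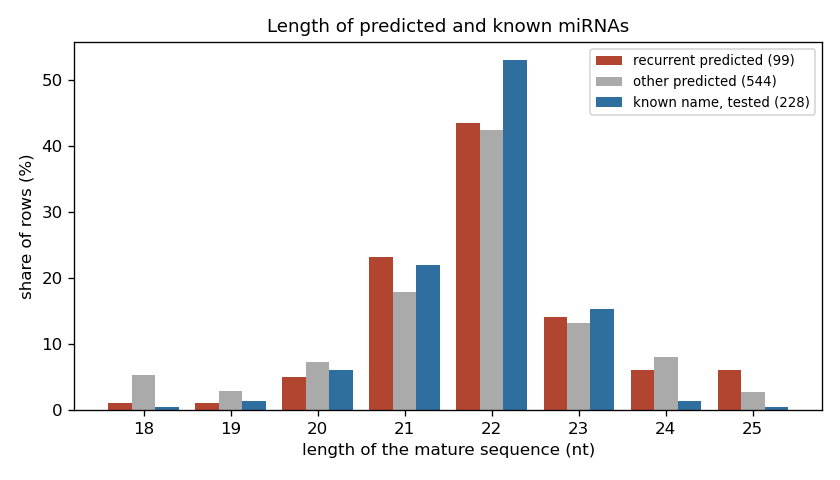
Share of rows (%) at each length of the mature sequence (nt) for the 99 recurrent predicted rows, the 544 other predicted rows and the 228 known miRNAs above 0 in at least 4 libraries. All 3 groups peak at 22 nt, and the recurrent predicted rows reach 6.06% at 25 nt, where the known miRNAs hold 0.439%.

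Several long rows were uneven across libraries. NovelmiRNA-270 (25 nt) had 0, 0, 985, 213 and 4217 reads in IMAT 1 to 5, 954 reads in SAT 1 and none in the other SAT libraries, and no reads in VAT. NovelmiRNA-588 (25 nt) held 226, 184, 77.2, 0 and 804 TMM-scaled CPM in IMAT 1 to 5, 87.1, 53.7, 54.4, 57.5 and 32.3 in SAT 1 to 5, and 20.4, 22.9, 19.7 and 0 in VAT 1, 3, 4 and 5. Its SAT libraries all lay above its VAT libraries, and the test was not passed in any comparison (edgeR adjusted p = 0.10 to 0.52). Grouped by length, the median log2 difference between IMAT and VAT was -0.11 for the 12 rows of 24 and 25 nt (9 distinct), -1.75 for the 43 rows of 22 nt (33 distinct) and -0.97 for the 23 rows of 21 nt (18 distinct). For known miRNAs of these lengths it was -0.64 (4 rows), -0.50 (121 rows) and 0.48 (50 rows).

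Together the 99 rows took 0.301, 0.219, 0.317, 0.342 and 0.516% of the counts in IMAT 1 to 5, 1.44, 1.34, 1.15, 1.19 and 1.12% in SAT 1 to 5, and 1.18, 1.60, 0.424 and 1.30% in VAT 1, 3, 4 and 5. VAT 4, where NovelmiRNA-441 and NovelmiRNA-627 were listed at 0, stood apart from the other VAT libraries. These rows, with their identical counts summed, gave 25.2, 30.5 and 25.9% of the counts on the 99 in VAT 1, VAT 3 and VAT 5. Every linked row was counted separately in the shares given here. Linked rows with known names were likewise counted separately in the summed counts and in the shares of muscle miRNAs. The low share in IMAT went with the counts on muscle miRNAs. With those left out of the totals, the 99 rows took 1.84, 2.11, 2.07, 1.66 and 1.5% in IMAT, 1.57, 1.47, 1.31, 1.24 and 1.19% in SAT, and 1.18, 1.68, 0.424 and 1.30% in VAT. On that scale the mean was highest in IMAT, at 1.84 ± 0.262% (SD over 5 libraries), while SAT averaged 1.35 ± 0.160% over 5 and VAT 1.15 ± 0.525% over 4. As a sum over chosen rows, the share was not tested.

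**Figure D4:**
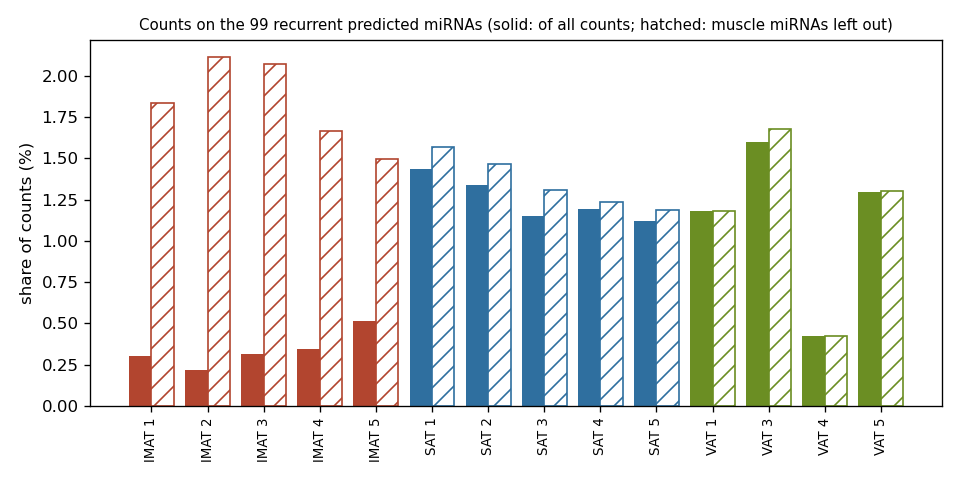
Share of counts (%) on the 99 recurrent predicted miRNAs in each library, of all counts (solid) and of the total without muscle miRNAs (hatched). Solid IMAT bars reach 0.219 to 0.516%, below SAT at 1.12 to 1.44%, and hatched IMAT bars reach 1.5 to 2.11%.

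Depot differences were tested with edgeR's quasi-likelihood test over all 327 rows above 0 in at least 4 libraries, with Benjamini-Hochberg adjustment. Called means an adjusted p under 0.05. Between IMAT and VAT 4 of the 99 (4.04%) were called, against 13.5% of all rows tested, 3 of them higher in IMAT (7.65% of all rows) and 1 lower (5.81%). Between IMAT and SAT 4 of 99 were called, against 6.73% of all rows, 2 higher (3.67%) and 2 lower in IMAT (3.06%). Between SAT and VAT 10 of 99 (10.1%) were called, against 12.5% of all rows, 4 higher (7.34%) and 6 lower in SAT (5.2%). With linked rows counted once these were 3, 3 and 8. The comparisons share libraries, and each is given by its own values. Of the 13 rows with a call, 7 reached 4 libraries only with the depot where they were highest: NovelmiRNA-28, NovelmiRNA-192, NovelmiRNA-206, NovelmiRNA-277, NovelmiRNA-333, NovelmiRNA-426 and NovelmiRNA-619. Without that depot such rows would not have been tested, so the filter favoured rows that differ. Their calls are given as a description and support nothing here.

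Scaling moved the whole table. Between IMAT and VAT the median log2 difference of all rows was -0.60, and that of the 99 was -1.21. With library totals as the only scaling these were -1.98 and -2.59, with 4 higher and 34 lower predicted rows called. Among all 327 rows 18 were then higher, and the share called lower was larger than among the 99. With totals that leave out the muscle miRNAs the medians were 0.23 and -0.33, with 4 higher and 1 lower predicted rows. All 318 rows of that fit gave 41 higher and 6 lower. For IMAT against SAT the medians were -0.43 (all) and -1.0 (the 99), and for SAT against VAT -0.05 and -0.15. With median-ratio scaling the SAT against VAT medians were -0.44 and -0.46. The calls were 1 higher and 9 lower in SAT, beside 14 and 25 among all 327 rows. Single libraries also set the counts of calls. Without VAT 4 there were 11 calls between IMAT and VAT and 10 between IMAT and SAT, and without IMAT 5 there were 9 and 11. Among all 327 rows, 40 were higher and 39 lower in IMAT than in VAT without VAT 4, and 27 and 16 against SAT. Without IMAT 5 these were 26 and 35, and 16 and 24. Between IMAT and SAT 1 call was left without SAT 2, SAT 3, SAT 4 or SAT 5. All rows then gave 8 to 10 higher and 6 to 7 lower. Between SAT and VAT 5 calls were left without SAT 1, SAT 2 or VAT 5, and 6 without SAT 3 or SAT 5. Among all rows 14 to 17 were higher and 9 to 12 lower in the first case. In the second, 17 or 21 were higher and 8 lower.

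NovelmiRNA-324 (20 nt) was high in IMAT and at or near 0 in VAT. It held 432, 499.2, 182.8, 225 and 599 TMM-scaled CPM in IMAT 1 to 5, 62.7, 31.6, 54.9, 26.7 and 45.9 in SAT 1 to 5, and 0, 8.35, 0 and 1.96 in VAT 1, 3, 4 and 5. No library of 1 depot reached another depot, in the order IMAT, SAT, VAT. It was higher in IMAT than in VAT by a log2 difference of 7.22 ± 1.44 (SE; edgeR adjusted p = 0.0036), a call kept in all 27 alternatives. The difference between IMAT and SAT, 3.13 ± 1.07, did not pass (adjusted p = 0.11). SAT was higher than VAT by 4.09 ± 1.23 (adjusted p = 0.044), a call kept in 6 of 27 alternatives. It was lost when any IMAT library other than IMAT 5, any SAT library, or VAT 1, VAT 4 or VAT 5 was left out (adjusted p = 0.063 to 0.18).

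NovelmiRNA-91 (20 nt) had the same counts as NovelmiRNA-324 in 13 libraries and was listed at 0 in SAT 4, where NovelmiRNA-324 had 118 reads. It was also called between IMAT and VAT (7.22 ± 1.83, edgeR adjusted p = 0.018; 0.052 without VAT 5) but not between SAT and VAT (3.90 ± 1.56, adjusted p = 0.13). The muscle miRNAs moved with these rows between depots. Within IMAT the order differed: IMAT 5, with the lowest muscle share (65.5%), had the highest level of NovelmiRNA-324. Within VAT, VAT 3 had the highest value of both (4.65% and 8.35 TMM-scaled CPM). The part of muscle RNA in this pattern was not tested.

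NovelmiRNA-62 and NovelmiRNA-268 (23 nt, identical counts) were high in VAT. Their level was 32.8, 55.5, 148, 57.9 and 7.46 TMM-scaled CPM in IMAT 1 to 5, 17.8, 9.0, 13.9, 13.4 and 19.7 in SAT 1 to 5, and 626, 206.1, 55.2 and 269 in VAT 1, 3, 4 and 5. All SAT libraries lay below all VAT libraries, while IMAT 2, IMAT 3 and IMAT 4 lay above VAT 4. SAT was lower than VAT by a log2 difference of -4.29 ± 0.79 (SE; edgeR adjusted p = 0.0027), a call kept in every alternative that tested it. The difference between IMAT and VAT, -2.27 ± 0.74, did not pass (adjusted p = 0.054). NovelmiRNA-260 and NovelmiRNA-492 (23 nt, identical counts) had the same order at lower levels, with 10.7, 24.0, 18, 18.8 and 6.48 in IMAT 1 to 5, 7.16, 3.23, 3.97, 3.4 and 4.30 in SAT 1 to 5, and 50.4, 35.2, 22.5 and 31.8 in VAT 1, 3, 4 and 5.

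NovelmiRNA-260 and its twin were lower in SAT than in VAT by -2.98 ± 0.50 (edgeR adjusted p = 0.0016), also kept in every alternative that tested it. Between IMAT and VAT the difference of -1.17 ± 0.48 did not pass (adjusted p = 0.11), and IMAT 2 lay above VAT 4. Both rows were higher in IMAT than in SAT by 1.81 ± 0.47 (adjusted p = 0.032), with IMAT 5 (6.48) below SAT 1 (7.16). That call was lost without SAT 2, SAT 3, SAT 4 or SAT 5 (adjusted p = 0.083 to 0.092), and with library totals as the only scaling the difference was 0.36 (adjusted p = 0.58). It was also lost without a filter and with the replicate block (edgeR adjusted p = 0.15 and 0.10), and with limma on log2(CPM + 1) (adjusted p = 0.60). For NovelmiRNA-260 it was kept in 19 of 27 alternatives. The miRNAs of pancreas and of gut and liver were also highest in VAT and lower in SAT. The pancreas list summed to 79.3 to 138 TMM-scaled CPM in SAT, against 503, 314, 381 and 385 in VAT 1, 3, 4 and 5. Within IMAT it was highest in IMAT 5 (283), where NovelmiRNA-62 (7.46) and NovelmiRNA-260 (6.48) were lowest. The gut and liver list was lowest there (51.7). Within VAT, VAT 1 was highest in the pancreas list and in both rows, while VAT 4 was lowest in both rows but not in the list. The neuron list was also highest in VAT, at 97.9 to 293, but lowest in IMAT. The part of these lists in the pattern of these 4 rows was not tested.

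NovelmiRNA-206 (23 nt) was found in SAT libraries alone, with 33, 33, 58, 16 and 28 reads in SAT 1 to 5 and 0 in every IMAT and VAT library. Its SAT mean was 7.70 ± 3.63 TMM-scaled CPM (SD, n = 5). Against 3 counts over all libraries of a depot, it was at least 33.5-fold lower in IMAT than in SAT (edgeR adjusted p = 0.0089) and at least 107-fold higher in SAT than in VAT (adjusted p = 0.0033). These bounds, and those that follow, cover counting error only. Both calls were kept in 25 of 27 alternatives and lost without a filter and with the replicate number as a block (adjusted p = 0.17 and 0.16 under the block). Without IMAT 5 the bound in IMAT was 12.6-fold, and without VAT 5 the bound over VAT was 63.4-fold. The row entered the test only through SAT.

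NovelmiRNA-426 (22 nt) was listed at 0 in all IMAT libraries and held 14.9, 21, 14.1, 10.6 and 15.1 TMM-scaled CPM in SAT 1 to 5, and 0, 2.98, 0 and 9.66 in VAT 1, 3, 4 and 5. It was at least 66.0-fold lower in IMAT than in SAT (24.7-fold without IMAT 5; edgeR adjusted p = 0.034), and it entered the test only through SAT. The call was kept in 12 of 26 alternatives and was lost without any of IMAT 1, IMAT 2, IMAT 3, IMAT 4, VAT 3 or the 5 SAT libraries (adjusted p = 0.067 to 0.093). NovelmiRNA-28 (24 nt) had 100, 53, 22, 0 and 0 reads in IMAT 1 to 5 and 72, 34, 0, 0 and 41 in SAT 1 to 5, and was listed at 0 in all VAT libraries. It was at least 331-fold higher in IMAT than in VAT (195-fold without IMAT 1, 196-fold without VAT 5; edgeR adjusted p = 0.040), and it entered the test only with IMAT. That call was kept in 15 of 26 alternatives and lost without IMAT 1, IMAT 2, SAT 2, SAT 5, VAT 1, VAT 3 or VAT 5 (adjusted p = 0.057 to 0.094). It was also lost without a filter, in the fit of only the 2 depots and with the replicate block (edgeR adjusted p = 0.053, 0.070 and 0.149). With limma on log2(CPM + 1) the adjusted p was 0.107.

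NovelmiRNA-333 (21 nt) had no reads in IMAT and 2 reads in SAT, all in SAT 4, against 29, 51, 16 and 27 reads in VAT 1, 3, 4 and 5. It was at least 15.3-fold lower in IMAT than in VAT (5.72-fold without IMAT 5; edgeR adjusted p = 0.022, and 0.064 without VAT 3). That call was kept in 23 of 27 alternatives. NovelmiRNA-333 entered the test only through VAT, for both comparisons. SAT was lower than VAT by a log2 difference of -4.96 ± 1.32 (adjusted p = 0.038), lost without SAT 1, SAT 2, SAT 3, SAT 5, VAT 1, VAT 3 or VAT 5 (0.062 to 0.097). NovelmiRNA-333 kept this call in 17 of 27 alternatives. NovelmiRNA-601 (21 nt) differed from it only in VAT 5, where it was listed at 0, and was not called in either comparison (adjusted p = 0.069 and 0.12).

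The other calls between SAT and VAT rested on few reads or few libraries, and each row entered the test only with the depot where it was highest. NovelmiRNA-192 (22 nt) had 1 and 5 reads in IMAT 2 and IMAT 5, none in SAT, and 9, 0, 51 and 28 in VAT 1, 3, 4 and 5, and was at least 15.3-fold lower in SAT than in VAT (7.98-fold without VAT 4; edgeR adjusted p = 0.036). It lost its call without any SAT library or without VAT 1 or VAT 5 (0.056 to 0.068), and kept it in 16 of 26 alternatives. NovelmiRNA-277 (22 nt) had 4, 4, 5, 0 and 8 reads in SAT 1 to 5 and none in VAT, at least 12.8-fold higher in SAT (7.59-fold without VAT 5; adjusted p = 0.044), and kept its call in 5 of 26 alternatives. NovelmiRNA-619 (24 nt) had 10 reads in IMAT 3, 280, 103, 0, 224 and 0 in SAT 1 to 5 and none in VAT, at least 429.01-fold higher in SAT than in VAT (258-fold without SAT 1, 255-fold without VAT 5; adjusted p = 0.048), and kept its call in 6 of 26. Leaving out single libraries gave adjusted p of 0.058 to 0.11 for NovelmiRNA-277, with every library but IMAT 5 and SAT 4, and of 0.069 to 0.11 for NovelmiRNA-619, with every library but IMAT 5, SAT 3 and SAT 5.

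**Figure D5:**
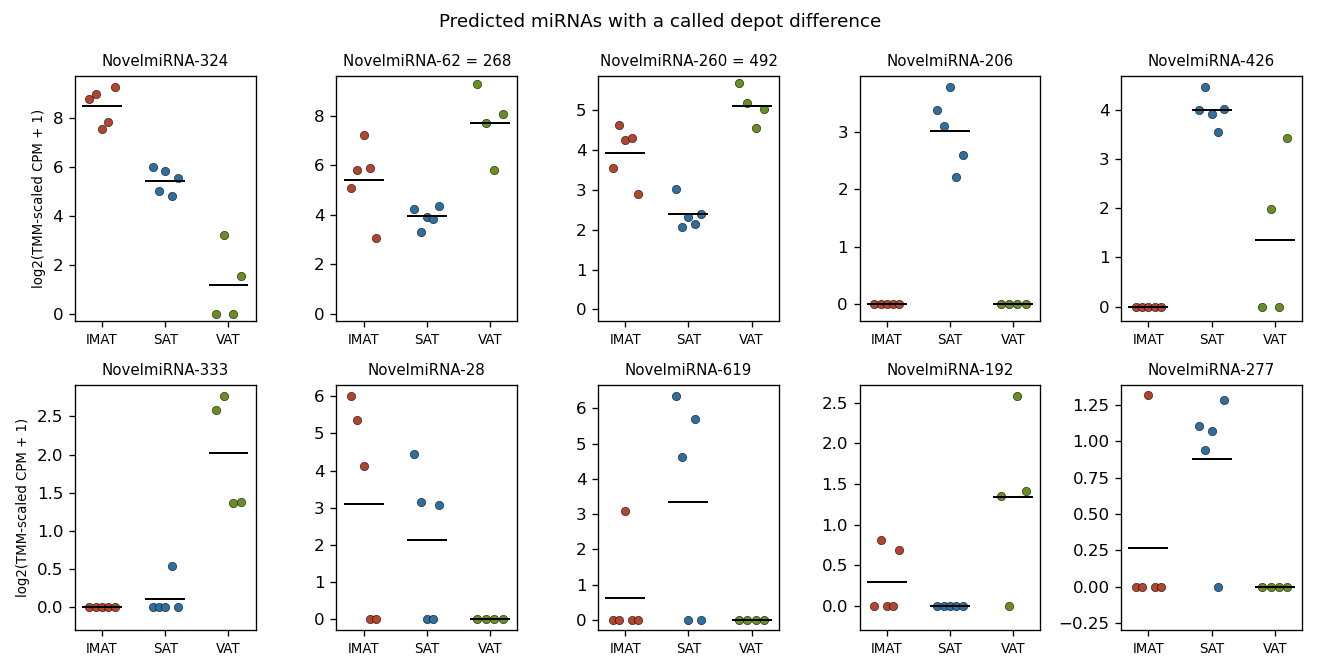
Level of the predicted miRNAs with a called depot difference in each library (points) and the depot mean on this scale (line), as log2(TMM-scaled CPM + 1), for 5 IMAT, 5 SAT and 4 VAT libraries. NovelmiRNA-324 steps down through IMAT, SAT and VAT. The 2 pairs of identical rows have their highest depot mean in VAT, and points on the 0 line are counts listed at 0.

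Rows whose depots did not overlap were counted as well. Between IMAT and VAT 7 of the 99 (6 distinct) did not overlap, against 15% of all rows, 3 of them higher in IMAT (9.48% of all rows) and 4 lower (5.5%). Between IMAT and SAT there were 12 (7 distinct), against 18.7%, 2 of them higher in IMAT (4.89%) and 10 lower (13.8%). Between SAT and VAT there were 10 (8 distinct), against 16.2%, 5 of them higher in SAT (11.6%) and 5 lower (4.59%). Beyond the called rows and NovelmiRNA-525, the non-overlapping rows below SAT in IMAT were NovelmiRNA-308, NovelmiRNA-510, NovelmiRNA-555, NovelmiRNA-398, NovelmiRNA-151, NovelmiRNA-156 and NovelmiRNA-2 (edgeR adjusted p = 0.12 to 0.45). NovelmiRNA-452 was lowest in VAT, without overlap with either depot (1.34 for IMAT and 1.02 for SAT against VAT on the log2 scale, adjusted p = 0.10 and 0.24). NovelmiRNA-549 and NovelmiRNA-591 lay lower in IMAT than in VAT (edgeR adjusted p = 0.076 and 0.10). NovelmiRNA-591 had counts in 2 SAT and 4 VAT libraries and none in IMAT, so it reached 4 libraries only with VAT, where it was highest. The counts of non-overlapping rows also hold NovelmiRNA-206, NovelmiRNA-333 and NovelmiRNA-426, which entered the test in the same way. For such rows non-overlap is a description and supports nothing here.

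The rule for a recurrent row drew its line at 4 libraries. Just inside it, with counts in exactly 4, were 13 predicted rows, led in level by NovelmiRNA-270, NovelmiRNA-619 and NovelmiRNA-371, the last with 32, 24 and 9 reads in IMAT 1 to 3 and 564 in VAT 4. Just outside, with counts in 3 libraries, were 44 rows, led by NovelmiRNA-6, by NovelmiRNA-474 (21 nt; 1274 reads in SAT 4 and 782 and 1219 in VAT 1 and VAT 3) and by NovelmiRNA-354 (22 nt; 1686 in SAT 5 and 1155 and 721 in VAT 4 and VAT 5). A further 376 predicted rows had counts in 1 library only, and 57 in none.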

How the data were processed

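The authors deposited 1 table of raw read counts per miRNA row and library, not normalized, with a second column per library headed TPM. Each such deposited value equals CPM within 0.005, with the first row left out of the total and no length term. These columns served only for that check. A deposited column gives the length in nt. A further 2 columns of per-sample values match no label and were not used. Per the submitters' processing notes, the tools included Trimmomatic 0.30 and edgeR 3.4.6, with no step stated. For the aligner, the miRNA caller and the build, the answer is "not given in the sources used here". No sequences were used.

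With R 4.3.3, edgeR 4.0.16 fitted its quasi-likelihood model (two-sided test) to the counts of the 327 rows above 0 in at least 4 libraries, with TMM scaling and all 14 libraries in 1 fit without a block. Log2 differences are the depot named first minus the second. Alternatives used DESeq2 1.42.0, limma 3.58.1 on log2(CPM + 1), other scalings and filters, joined rows and left-out libraries. Levels are mean ± SD of TMM-scaled CPM. Summed counts per library, 759369 to 11843805, set the precision, and floors of 3 counts cover counting error only. Named rows are the 12 with the highest level, called rows (at most 12 per direction), the leading linked sets, single-depot rows, the shortest and longest, and those at the 4-library line. Rows named beyond these were chosen after their values were seen. The members, marker lists and tests were chosen with earlier results of these data known.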

Additional observations from a re-analysis of the deposited data

Results flagged for a closer look

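In 5 of 45 groups checked, each 1 named row in 1 depot, 1 library lay far from the rest (Dixon's test at its 95% critical value). For values without ties, chance flags about 1 in 20. In every flag but that of NovelmiRNA-260 the other libraries were tied at 0. In a group that was checked, a single library above 0 is then always flagged, however few its reads, and the rate of 1 in 20 does not hold. The 45 groups did not cover every row named above. NovelmiRNA-371, for example, had counts in VAT 4 as the only VAT library and is not among the flags. NovelmiRNA-270 stood at 273 TMM-scaled CPM in SAT 1, with the other 4 SAT libraries at 0. NovelmiRNA-260 stood at 7.16 in SAT 1, with the nearest SAT library at 4.30. NovelmiRNA-619 (7.49) and NovelmiRNA-277 (1.5) had counts in IMAT 3 as the only IMAT library, and NovelmiRNA-333 (0.453) in SAT 4 as the only SAT library.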

How the results depend on the processing

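Over 398 alternative values for the 15 called differences (identical rows counted once), none turned round, 274 kept the call and the rest lost it. Differences against a depot listed at 0 throughout, given above as an at-least fold, could not turn round in any alternative. The 15 also include the rows that entered the test only with their highest depot, whose calls support nothing here. In the order IMAT against VAT, IMAT against SAT and SAT against VAT, edgeR as reported called 4, 4 and 10 predicted rows. DESeq2 called 18, 13 and 16, and limma with zeros beyond counting error taken as missing, chosen after seeing the data, 34, 38 and 17. Among all 327 rows DESeq2 called 36 higher and 50 lower, then 31 and 16, then 24 and 39. That limma fit called 37 and 57, then 20 and 63, then 40 and 21. Library totals gave 38 and 23 and limma on log2(CPM + 1) 44 and 35 in the first 2 comparisons, nearly all lower in IMAT. Among all 327 rows limma on log2(CPM + 1) called 16 higher and 160 lower, then 9 and 165. Library totals called 18 and then 7 of all rows higher, and most of their calls were lower in IMAT. With both settings, a larger share of all rows than of the 99 was called in each of these 2 comparisons. Without a filter there were 2, 0 and 4 (all on 842 rows), and with the replicate block 2, 0 and 4. Among all 842 rows without a filter 21 were higher and 5 lower, then 9 and 2, then 7 and 10. With the block the 327 rows gave 22 and 6, then 10 and 6, then 21 and 6. In the fit of only the 2 depots there were 2 calls between IMAT and VAT and 6 between SAT and VAT. All 327 rows gave 21 higher and 5 lower, then 16 and 21. With rows that hold zeros beyond counting error left out, only 40 of the 99 were tested, and 9 were called between IMAT and VAT. All 230 rows of that fit gave 25 higher and 39 lower. Between SAT and VAT, the stricter filter (83 of the 99 tested) and totals without muscle miRNAs (added after seeing the data) left 6 each. Among all rows tested these called 16 higher and 20 lower (281 rows), and 14 and 13 (318 rows). Leaving out 1 library gave 3 to 11, 1 to 11 and 5 to 11. Among all rows 19 to 40 were then higher and 10 to 39 lower between IMAT and VAT. These were 8 to 27 and 5 to 24 between IMAT and SAT, and 14 to 28 and 8 to 25 between SAT and VAT. The labels do not say whether libraries with the same replicate number came from the same fish. Same-numbered libraries correlated at -0.24 to 0.19 over 13 pairs, and 2 of the 13 matched their own number best. These values cannot decide it, since a shared part small beside other differences between libraries would also give low correlations. The counts of 0 between IMAT and SAT came from the fits without a filter and with the block. In the reported edgeR test, 25 of the 99 rows (25.3%) had an unadjusted p under 0.05 there. Among known miRNAs the share was close to it, at 59 of 228 (25.9%). With identity in all 14 libraries 17 rows, not 47, were linked. The share of counts on the 99 rows was 0.339% in IMAT and 1.25% in SAT, and 1.84% in IMAT with muscle miRNAs left out. With linked rows joined it was 0.481% in IMAT and 1.00% in SAT. Linked rows with known names were joined in those totals as well, so a joined share can lie above the share of all counts. Leaving out 1 library, with no rows joined, gave 0.295 to 0.369% in IMAT, 1.2 to 1.28% in SAT and 0.967 to 1.36% in VAT. A listed 0 where fewer than 20 reads would be awaited was not counted as beyond counting error, and shallow depth was not told apart from absence there.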
